A study of Mus musculus with 9 samples.

Results

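The gastrocnemius, the large calf muscle of the mouse, was compared by RNA sequencing between animals aged 21 months and animals aged 6 months. The comparison uses 6 of the 9 libraries of the series, namely the 3 labelled old (21M) against the 3 labelled youth (6M), chosen by their column labels. The design text counts 3 animals per age, with 1 library each, and the 3 libraries of mice aged 15 months entered the fit on age to share the estimate of the spread. The labels name no genotype, strain, sex or treatment, so age is the only labelled difference between the groups. Whole muscle was used, and in such bulk RNA fewer cells of a type and less RNA per cell cannot be told apart.

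Membrane and secreted proteins enter the endoplasmic reticulum (ER), where chaperones fold them, disulfide isomerases set their bonds and sugars are attached, before coated vesicles carry them to the Golgi. When unfolded proteins collect there, the sensor Ire1 splices the mRNA of Xbp1, and the resulting transcription factor, with Atf6, switches on many of these genes. In muscle the ER is continuous with the sarcoplasmic reticulum, the calcium store of contraction. The gastrocnemius is made mostly of fast fibres, with a smaller slow part. Slow fibres are marked by Myh7, the slow myosin heavy chain, and Tnnt1, the slow skeletal troponin T.

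The 6 libraries held between 15775626 and 17317856 estimated counts, and 13044 of 17314 listed genes passed the filter on low counts. Skeletal muscle markers were abundant in every library. The summed level of 11 skeletal muscle genes, among them Acta1 and Ckm, lay between 72458 and 77044 CPM at 6 months and between 62542 and 66780 CPM at 21 months. CPM, the count of a gene scaled to a common library total with TMM factors, is the unit of every level, and fold changes are log2 values of 21 minus 6 months from edgeR's quasi-likelihood test.

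Within each age the mice were far apart in their slow fibre genes. Myh7 was at 2.33, 0.438 and 12.8 CPM in the 6-month mice and at 4.69, 18.7 and 156 CPM in the 21-month mice. Tnnt1 was at 5.91, 1.31 and 6.38 CPM at 6 months and at 4.93, 12.4 and 69.9 CPM at 21 months. Mouse 2 was lowest at 6 months and mouse 3 highest at 21 months for both genes, and the ages overlapped for both. The log2 fold changes were 3.52 (SE 1.33) for Myh7 and 2.68 (SE 0.96) for Tnnt1, and neither passed the test (edgeR adjusted p 0.377 and 0.356). Of 12 slow fibre contractile genes, 11 were higher at 21 months with a median log2 fold change of 1.66, and 6 had an unadjusted p under 0.05. The median was 0.38 without the 3 libraries that stood apart on these genes (mouse 2 at 6 months, mouse 1 at 15 months, mouse 3 at 21 months). Dropping mouse 3 at 21 months alone gave 0.71. With log2 Myh7 CPM of each library added to the fit as a covariate, the median was -0.11 and 0 of the 12 had an unadjusted p under 0.05. The counts of each function below are therefore set beside those of this second fit. All 9 libraries help set its slope on Myh7, with the 15-month mice at 166, 49.7 and 22.7 CPM. Within an age, 8.55% of all tested genes had a positive and 7.08% a negative slope on log2 Myh7 at an unadjusted p under 0.05, against 10 and 0 of the 12 slow fibre genes. That list holds Myh7 itself, so its values in the second fit, slopes included, are partly set by construction.

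**Figure D1:**
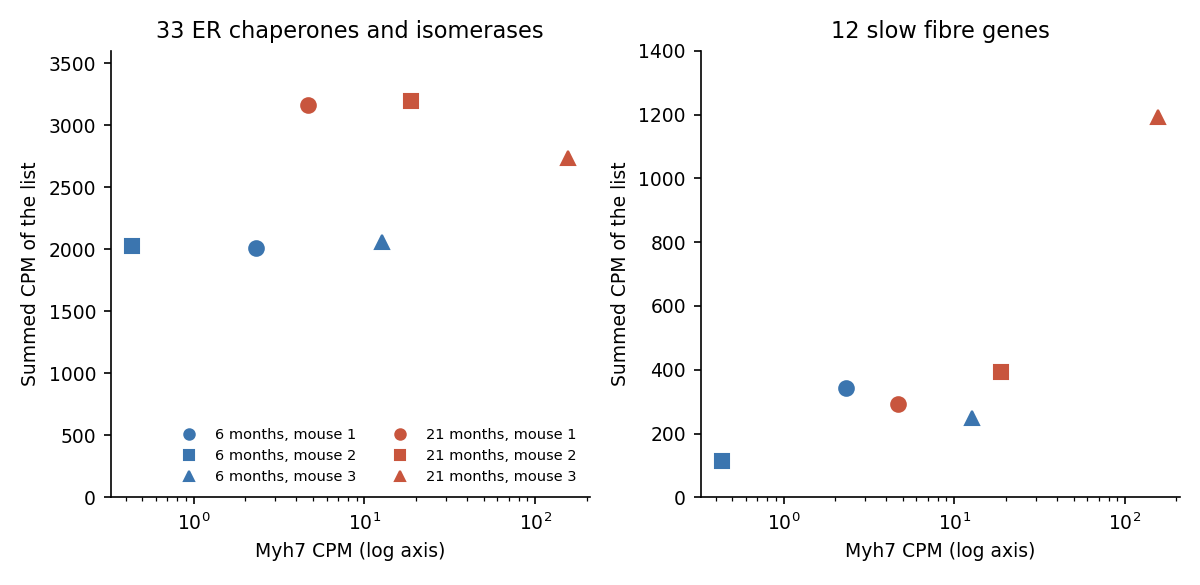
Summed CPM of 33 ER chaperones and isomerases (left) and of 12 slow fibre genes (right) against Myh7 CPM on a log axis, 1 point per mouse, 6 months in blue and 21 months in red. The chaperone sums of the ages do not overlap, while the slow fibre sums do, and mouse 3 at 21 months stands at 1193 CPM.

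At 21 months the muscle held more mRNA of Xbp1, the transcription factor of the ER stress response, and less of Npy1r, a receptor for the sympathetic co-transmitter neuropeptide Y. These were the only genes past an adjusted p of 0.05 in edgeR, which is 0.0153% of those tested. Xbp1 (chromosome 11, 5520641 to 5525993, GRCm38.p6) was at 87.3, 97.4 and 78.2 CPM at 6 months and at 198, 207 and 166 CPM at 21 months. All 3 older mice lay above all 3 younger ones, and the 15-month mean was 148 CPM. Xbp1 rose by a log2 fold change of 1.12 (SE 0.12, edgeR adjusted p 0.0423). Beside Myh7 as a covariate the log2 fold change was 1.30 (edgeR adjusted p 0.0220). The exon models of the reference annotation put no other gene over its exons. The table does not separate the spliced and unspliced forms of its mRNA.

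Npy1r (chromosome 8, 66697149 to 66706800) was at 10.2, 8.70 and 8.28 CPM at 6 months and at 3.31, 4.12 and 3.89 CPM at 21 months, again with no overlap. It fell by 1.26 on the log2 scale (SE 0.15, edgeR adjusted p 0.0423). Its size beside the Myh7 covariate was the same, -1.26, at an edgeR adjusted p of 0.104. Without mouse 1 or mouse 2 of either age, neither Xbp1 nor Npy1r passed, with edgeR adjusted p from 0.103 to 0.209. Npy1r also missed the threshold once mouse 3 at 21 months (edgeR adjusted p 0.0744) or mouse 2 at 15 months (0.0539) was left out. Their log2 fold changes stayed between 1.05 and 1.21 for Xbp1 and between -1.33 and -1.17 for Npy1r when any 1 library was left out.

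Because so few genes passed, each gene function below is described by how many of its tested members had an unadjusted p under 0.05, beside the same share over all 13044 genes. That share was 5.14% higher and 5.5% lower at 21 months. The fit with the Myh7 covariate gave 5.19% higher and 5.45% lower. Groups did not overlap in 7.81% of genes in the higher and 8.31% in the lower direction. DESeq2, run as an alternative, called 0.736% of genes higher and 0.797% lower. The median log2 fold change over all tested genes was -0.01. Apart from Xbp1, none of the genes named from here on passed the adjusted test of edgeR, and their values are given as measured.

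ER chaperones and disulfide isomerases had the most members with an unadjusted p under 0.05 among the 39 functions. Of 33 tested members, 29 were higher at 21 months, with a median log2 fold change of 0.30. An unadjusted p under 0.05 was reached by 17 members in the higher and 0 in the lower direction, and DESeq2 called 10 of them higher. In 19 members every older mouse lay above every younger one. The summed level of the 33 genes was 2007, 2024 and 2063 CPM at 6 months and 3165, 3196 and 2737 CPM at 21 months. The older mice stood clear of the younger ones, and mouse 3 at 21 months, the one rich in slow fibre mRNA, was the lowest of its age.

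Hspa5, which encodes the main ER Hsp70 chaperone BiP, stood at 227, 228 and 255 CPM at 6 months and at 677, 664 and 515 CPM at 21 months, a log2 fold change of 1.39 (SE 0.21, edgeR adjusted p 0.0585). Its 15-month mean was 490 CPM, with an SD of 167 over 3 mice. Hsp90b1, the ER form of Hsp90, stood at 184, 183 and 196 CPM against 349, 329 and 272 CPM. It shares 14.7% of its exon bases with the opposite-strand pseudogene 1810014B01Rik. Calnexin (Canx), a lectin chaperone for newly glycosylated proteins, stood at 121, 128 and 112 CPM against 201, 191 and 170 CPM. In all 3 genes mouse 3 was the lowest of the older mice, and the ages did not overlap. Their partners in disulfide formation were also higher in every older mouse, with log2 fold changes of 0.73 for Pdia3, 0.74 for Pdia6 and 0.42 for Pdia4. Calr, the soluble partner of calnexin, differed by 0.35 on the log2 scale.

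Smaller helpers followed. Hyou1, the exchange factor of BiP, stood at 32.9, 33.1 and 33.8 CPM at 6 months and at 62.4, 64.0 and 48.7 CPM at 21 months. Manf, a secreted ER stress protein that binds BiP, stood at 23.0, 15.0 and 23.7 CPM against 58.8, 56.0 and 46.9 CPM. The cochaperone Dnajb9 was higher by a log2 fold change of 0.88 and Sdf2l1 by 1.32. Other members stood near 0. Serpinh1, the chaperone of collagen, had a log2 fold change of 0.07 (SE 0.18, and -0.21 with the Myh7 covariate), Cdnf, a relative of Manf, -0.03 (SE 0.10), Erp29 -0.02 (SE 0.11) and the oxidase Ero1b 0.00 (SE 0.15), and the ages overlapped in each of these 4. Erp29 shares 30.5% of its exon bases with the opposite-strand gene Naa25.

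**Figure D2:**
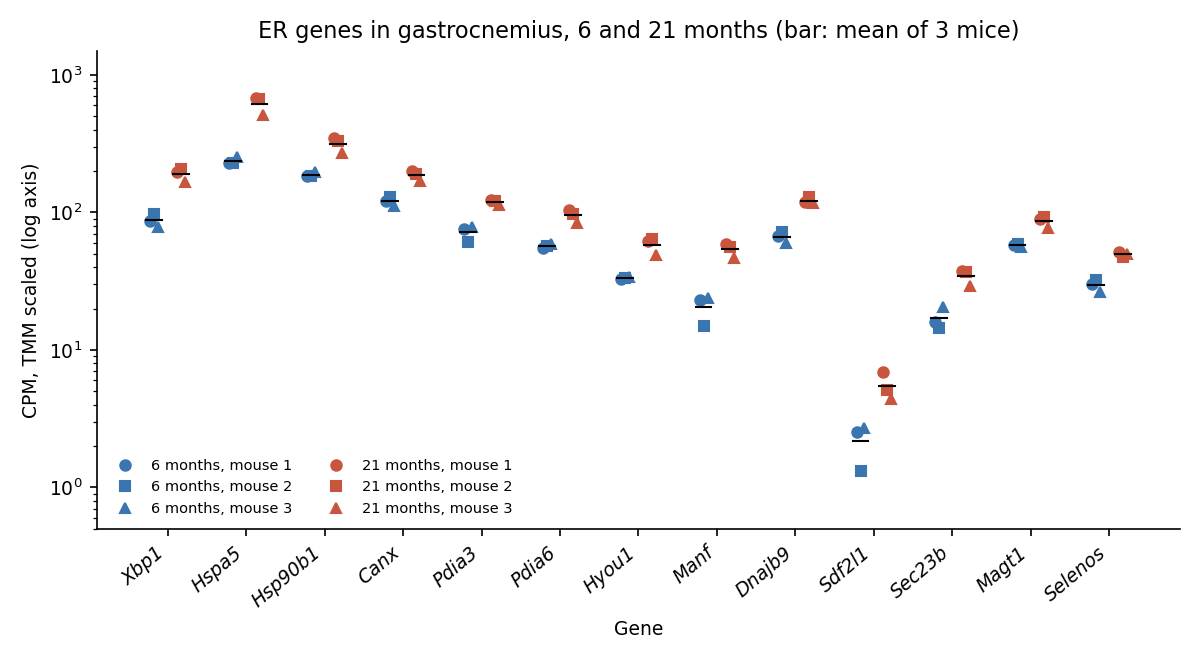
CPM of 13 genes of the ER on a log axis, 1 symbol per mouse with the mean of 3 mice as a bar, 6 months in blue and 21 months in red. In each of the 13 genes the 3 older mice lie above the 3 younger mice, as in Hspa5 with 515 CPM for the lowest older mouse and 255 CPM for the highest younger mouse. The 13 were chosen among the genes named in the text. Over whole lists, 19 of 33 chaperones, 16 of 45 genes of ER entry and 16 of 41 vesicle genes separated in this direction. So did 4 of 28 degradation genes and 6 of 17 stress sensors and factors, beside 7.81% of all tested genes.

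The chaperones kept this position beside the slow fibre spread. With the Myh7 covariate 16 of 33 had an unadjusted p under 0.05 in the higher direction and 0 in the lower, 14 of them in both fits, and the median was 0.26. Without the 3 libraries that stood apart, the count was 16 and the median 0.23. Leaving out 1 library at a time gave 13 to 18 members. Of the 33, 3 had a positive and 1 a negative slope on Myh7 within an age. B and plasma cells secrete heavily and use Xbp1, so their markers were measured as well. Of 9 listed markers 2 passed the filter, Derl3 was listed at 0 in 3 of the 6 libraries, and the summed level of the 9 was 6.70 to 9.20 CPM at 6 months and 7.90 to 10.2 CPM at 21 months. Sdc1 was at 6.98, 5.07 and 7.54 CPM against 4.75, 7.22 and 5.13 CPM. Jchain, the joining chain of secreted antibodies, was at 0.440, 0.376 and 0.245 CPM against 2.46, 0.656 and 1.11 CPM, higher in every older mouse. Its part in the ER result was not tested.

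**Figure D3:**
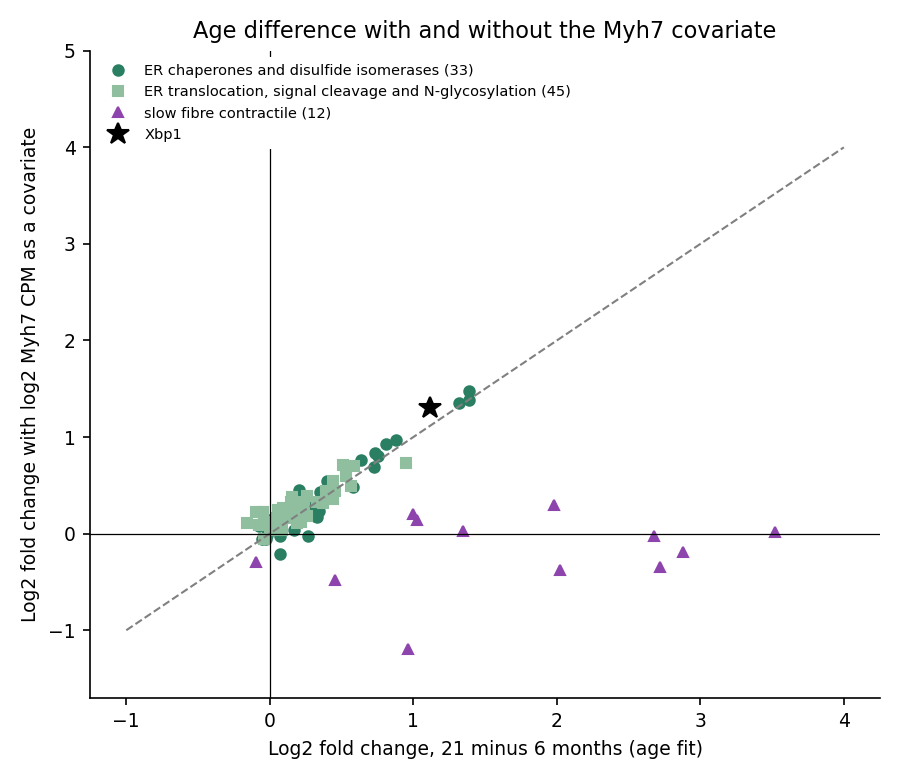
Log2 fold change of 21 minus 6 months in the fit on age (horizontal) and with log2 Myh7 CPM as a covariate (vertical) for 33 ER chaperones, 45 genes of ER entry and glycosylation, 12 slow fibre genes and Xbp1. ER genes lie near the dashed line of equal values, with Xbp1 at 1.12 and 1.30, while slow fibre genes lie near 0 on the vertical axis, with Myh7 at 3.52 and 0.01. Myh7 is the covariate itself, so its 0.01 follows from the construction of the fit.

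Promoters of ER chaperones are known for the ER stress element (ERSE), a pair of short boxes bound by NF-Y and by Atf6 or Xbp1. The pattern CCAAT, 9 bases of any kind, then CCACG was searched on both strands of the 250 bases before the RefSeq start (GRCm38.p6). The 4 printed below belong to chaperones whose ages did not overlap, and the capitals mark the boxes of the element, on either strand. Hspa5 is at chr2:34771840-34772089 on the plus strand, Canx at chr11:50325674-50325923 on the minus strand, Hsp90b1 at chr10:86705445-86705694 on the minus strand and Pdia6 at chr12:17266339-17266588 on the plus strand, each written in the direction of transcription.
Hspa5: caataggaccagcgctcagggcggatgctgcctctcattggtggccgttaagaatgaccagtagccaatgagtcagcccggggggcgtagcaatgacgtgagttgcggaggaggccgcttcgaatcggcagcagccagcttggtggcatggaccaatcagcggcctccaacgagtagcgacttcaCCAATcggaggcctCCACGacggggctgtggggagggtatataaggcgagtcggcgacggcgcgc
Canx: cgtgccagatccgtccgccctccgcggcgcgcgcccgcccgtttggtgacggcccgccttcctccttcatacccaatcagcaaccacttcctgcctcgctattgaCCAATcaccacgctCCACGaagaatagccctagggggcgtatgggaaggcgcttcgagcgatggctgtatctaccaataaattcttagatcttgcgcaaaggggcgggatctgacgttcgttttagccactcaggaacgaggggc
Hsp90b1: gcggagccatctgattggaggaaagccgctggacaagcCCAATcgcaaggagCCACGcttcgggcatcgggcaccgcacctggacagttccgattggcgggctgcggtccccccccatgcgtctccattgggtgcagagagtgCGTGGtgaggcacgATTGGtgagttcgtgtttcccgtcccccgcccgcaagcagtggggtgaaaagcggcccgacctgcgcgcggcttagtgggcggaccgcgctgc
Pdia6: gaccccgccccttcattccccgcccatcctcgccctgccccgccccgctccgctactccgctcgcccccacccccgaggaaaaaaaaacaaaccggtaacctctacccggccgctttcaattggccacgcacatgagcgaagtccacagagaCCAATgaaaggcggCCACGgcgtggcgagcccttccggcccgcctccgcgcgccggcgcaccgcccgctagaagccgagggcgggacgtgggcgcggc

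The element began 65 bases before the start in Hspa5, 145 in Canx and 98 in Pdia6, and Hsp90b1 carried it at 212 and, on the opposite strand, at 107 bases. Over all tested genes with a promoter in the table, 16 of 10375 (0.154%) held an ERSE, and 8 of those 16 were among the 29 ER chaperones with a promoter (27.6%). All 8 had a log2 fold change at or above 0, with a median of 0.49, and 6 had an unadjusted p under 0.05, namely Hspa5, Hsp90b1, Canx, Pdia6, Calr and Creld2. The other members with the element were Dnajc3, with a log2 fold change of 0.19, and Ero1b, with 0.00. Among the 21 chaperones with a promoter but no match, 9 had an unadjusted p under 0.05 in the higher direction and the median was 0.26. The 8 genes with an ERSE outside the chaperones had a median of 0.04, with 1 higher and 1 lower at that threshold. No match was present in the 34 promoters of the list of ER entry and glycosylation or in the 35 of the vesicle list. Of 22 promoters of ER-associated degradation genes 1 held an ERSE, that of Syvn1, with a log2 fold change of 0.23. A second form, ERSE-II (ATTGG, 1 free base, then CCACG), was found in 7 of 10375 promoters. It was in 0 of the 29 chaperone promoters and in that of Herpud1, a degradation gene with a log2 fold change of 0.16.

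Genes for entry into the ER, signal cleavage and N-glycosylation were higher by less. Of 45, 38 were higher, the median was 0.16, and 11 had an unadjusted p under 0.05, all higher. With the Myh7 covariate 44 of 45 were higher and 7 passed that threshold, all 7 in both fits. Magt1, an oxidoreductase of the oligosaccharyl transferase, stood at 57.8, 59.4 and 56.0 CPM against 90.0, 92.9 and 77.7 CPM, with no overlap. Srp72 of the signal recognition particle, Ddost of the oligosaccharyl transferase and Spcs3 of the signal peptidase had log2 fold changes of 0.46, 0.53 and 0.51. Each was higher in all 3 older mice.

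Vesicle genes between ER and Golgi had 34 of 41 members higher and a median of 0.17, with 10 higher and 1 lower at an unadjusted p under 0.05. Beside the Myh7 covariate these counts were 15 and 0. They were the most dependent on single mice among the ER functions, with 4 higher members left once mouse 1 or mouse 2 at 21 months was dropped, and 6 once mouse 1 at 6 months was. Sec23b, a coat subunit of vesicles leaving the ER, stood at 15.8, 14.3 and 20.7 CPM against 37.5, 36.9 and 29.0 CPM, a log2 fold change of 1.02 (SE 0.22). Cargo receptors Tmed3 and Tmed9 differed by 0.47 each and the tether Uso1 by 0.39. The 1 lower member was Sec24a, another coat subunit, at -0.39, and with the Myh7 covariate it was at -0.10.

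ER-associated degradation, which returns misfolded proteins to the proteasome, was closer to the background. Of 28 genes, 17 were higher with a median of 0.03, and 3 had an unadjusted p under 0.05. With the Myh7 covariate 24 were higher, 8 passed in the higher and 1 in the lower direction, and 10 of the 28 had a negative slope on Myh7 within an age. Leaving out 1 library gave 2 to 5 higher and 0 to 2 lower members. Selenos, a membrane anchor of this machinery, stood at 30.0, 32.4 and 26.2 CPM against 51.8, 47.6 and 49.8 CPM. Ubxn4 differed by 0.40 and the ubiquitin-conjugating enzyme Ube2g2 by 0.39, both without overlap.

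The stress sensors and their factors were mixed. Of 17, 14 were higher with a median of 0.13, and an unadjusted p under 0.05 was reached by 4 in the higher and 1 in the lower direction. With the Myh7 covariate 1 in each direction reached it, Xbp1 and Creb3l1, and the median was 0.17. Without the 3 libraries that stood apart the counts were 5 and 0. Dropping mouse 3 at 6 months or mouse 1 at 21 months left 2 higher members. Creb3l1, a relative of Atf6 that is known for collagen production, had a log2 fold change of -0.60. Ddit3, the factor CHOP of the Perk arm, had a log2 fold change of 0.53 that was 0.20 with the covariate, and Wfs1, a calcium regulator of the ER, had 0.75 and 0.15. ATF4 targets and amino acid synthesis had 16 members higher and 15 lower of 31, with 5 and 2 past an unadjusted p under 0.05, and 5 and 1 with the covariate. Asns, the asparagine synthetase, was at 1.82, 2.50 and 1.35 CPM against 3.85, 2.68 and 2.90 CPM, while Chac1, which degrades glutathione, was at 134, 31.0 and 14.8 CPM against 10.9, 11.5 and 12.4 CPM. The log2 fold change of Chac1, -2.37, was -0.98 without mouse 1 at 6 months. Without mouse 1 at 21 months 1 ATF4 target was left in the higher direction.

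**Figure D4:**
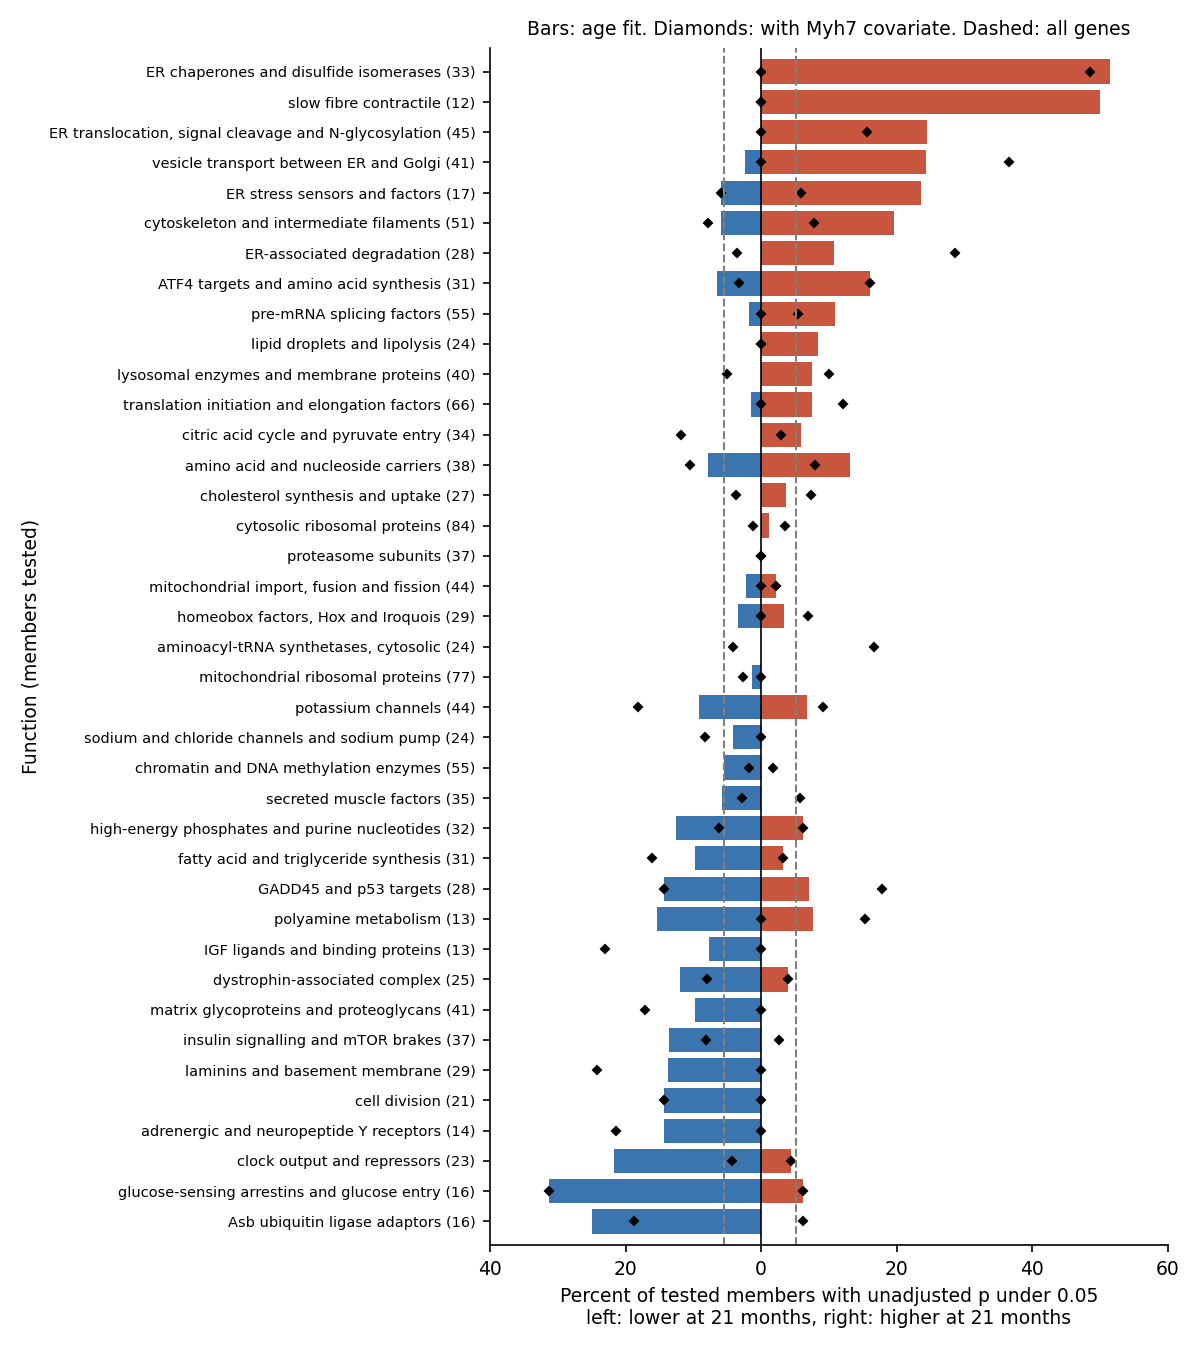
Percent of tested members of 39 gene functions with an unadjusted p under 0.05, higher at 21 months to the right and lower to the left, with the number tested in parentheses. Bars are the fit on age, diamonds the fit with the Myh7 covariate and dashed lines the shares over all genes, 5.14% and 5.5%. ER chaperones keep their diamond beside the bar, while the diamond of the slow fibre genes, a list that holds Myh7 itself, is at 0.

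Other machinery of protein production and removal had medians near 0. Cytosolic ribosomal proteins had 66 of 84 members lower with a median of -0.07, which was 0.01 with total count scaling, and 1 member, Rpl3, at an unadjusted p under 0.05 (log2 fold change 0.40). With the Myh7 covariate 3 were higher and 1 lower at that threshold. Mitochondrial ribosomal proteins had 0 higher and 1 lower of 77, and 0 and 2 with the covariate. Proteasome subunits had 0 of 37 in either direction in both fits. Cytosolic aminoacyl-tRNA synthetases, which load transfer RNAs with amino acids, had 0 of 24 in either direction, but 4 higher and 1 lower with the covariate, where their median was 0.15 against 0.01. Translation factors had 5 higher and 1 lower of 66, and 8 and 0 with the covariate. Once mouse 3 at 6 months was dropped, 7 cytosolic ribosomal proteins, 5 proteasome subunits (median -0.18), 5 translation factors and 2 synthetases were lower at that threshold. Once mouse 3 at 21 months was dropped, 5 mitochondrial ribosomal proteins were. Eif1a stood at 21.9, 24.1 and 20.2 CPM against 39.7, 27.3 and 29.0 CPM, and the start codon factor Eif5 at 295, 267 and 269 CPM against 374, 339 and 338 CPM. Lysosomal genes had 3 higher and 0 lower of 40, a share near that over all genes, and 4 and 2 with the covariate. Leaving out 1 library gave 1 to 5 higher and 0 to 3 lower, with 1 higher once mouse 1 at 21 months was dropped. The 3 were Atp6v1a, Atp6v1b2 and Atp6v1h, which encode subunits of the proton pump. Atp6v1b2 stood at 94.0, 87.0 and 86.9 CPM against 129, 123 and 112 CPM, with no overlap.

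Among genes of growth arrest and p53, members lay on both sides, with 2 higher and 4 lower of 28, and 5 and 4 with the Myh7 covariate. Leaving out 1 library gave 1 to 4 higher members, 4 of them once mouse 3 at 21 months was dropped. Gadd45g, a stress-induced activator of the p38 and JNK pathway, stood at 100, 74.4 and 86.3 CPM at 6 months and at 26.1, 35.8 and 29.5 CPM at 21 months. Its log2 fold change was -1.52 (SE 0.20, edgeR adjusted p 0.0585), and -1.47 with the Myh7 covariate. Cdkn1b, the cell cycle inhibitor p27, stood at 64.9, 69.3 and 61.9 CPM against 42.7, 41.1 and 43.2 CPM. Trp53inp1, a p53 target in autophagy, stood at 60.0, 60.3 and 44.9 CPM against 32.8, 34.5 and 27.9 CPM. In the 3 genes the ages did not overlap. Eda2r, a receptor of the tumour necrosis factor family and a p53 target, went the other way, at 77.6, 84.7 and 46.4 CPM against 185, 138 and 104 CPM. Its log2 fold change was 1.03 (SE 0.32), and 1.57 with the Myh7 covariate. Cdkn1a, the inhibitor p21, overlapped between ages at 93.5, 109 and 37.0 CPM against 150, 121 and 73.9 CPM. It shares 10% of its exon bases with the opposite-strand gene AC167363.2.

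Fatty acid and triglyceride synthesis had 1 higher and 3 lower of 31, with a median of -0.04, and 1 and 5 with the Myh7 covariate. Dropping mouse 1 at 6 months gave 4 higher and 5 lower, and dropping mouse 2 of that age 0 and 4. Pnpla3, a lipid droplet hydrolase, stood at 26.1, 21.8 and 10.5 CPM at 6 months and at 2.82, 3.58 and 2.53 CPM at 21 months. Its log2 fold change was -2.70 (SE 0.38, edgeR adjusted p 0.0585), and -2.52 with the Myh7 covariate. Srebf1, the transcription factor that drives lipid synthesis and a regulator of Pnpla3, stood at 56.2, 75.6 and 95.5 CPM against 34.0, 37.7 and 29.8 CPM, a log2 fold change of -1.16 (SE 0.20). Both genes were lower in every older mouse. Of the exon bases of Srebf1, 2.54% overlap the opposite-strand gene Rai1. Thrsp, a lipogenic factor, was at -0.61, and at -0.26 with the covariate. Adipocytes express these genes as well. Of 9 adipocyte markers 7 were tested, of which 2 were higher and 5 lower, with 0 at an unadjusted p under 0.05. Their median was -1.11, but 0.48 without the 3 libraries that stood apart. Their summed level, 182 to 336 CPM at 6 months and 283 to 375 CPM at 21 months, was mostly Fabp4, which endothelial cells express as well. Fabp4 was at 226, 285 and 170 CPM against 269, 277 and 360 CPM. Adipoq was at 0.817, 9.33 and 1.16 CPM against 1.32, 1.49 and 0.803 CPM, with mouse 2 at 6 months apart, and the part of adipocytes in the lipid genes was not tested. DESeq2 called 2 of the 31 lower, Pnpla3 and Srebf1.

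Of 16 genes for glucose entry and the arrestin domain proteins that restrain it, 14 were lower with a median of -0.21. An unadjusted p under 0.05 was reached by 1 higher and 5 lower members, and with the Myh7 covariate also by 1 and 5. The lower count was 3 if mouse 2 of either age, or mouse 1 at 21 months, was left out. Arrdc2, an arrestin domain adaptor, stood at 224, 296 and 113 CPM against 33.3, 39.1 and 55.7 CPM, a log2 fold change of -2.31 (SE 0.43). Arrdc4, which like Txnip restrains glucose uptake, stood at 24.5, 38.2 and 28.6 CPM against 16.8, 19.3 and 14.8 CPM. Both were lower in every older mouse. Txnip itself had a log2 fold change of -0.46 and overlapped between the ages. It shares 21.4% of its exon bases with the opposite-strand gene Gm15441. Hk2, the hexokinase of muscle, was the higher member, at 288, 303 and 362 CPM against 415, 469 and 531 CPM, a log2 fold change of 0.57 (SE 0.15).

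**Figure D5:**
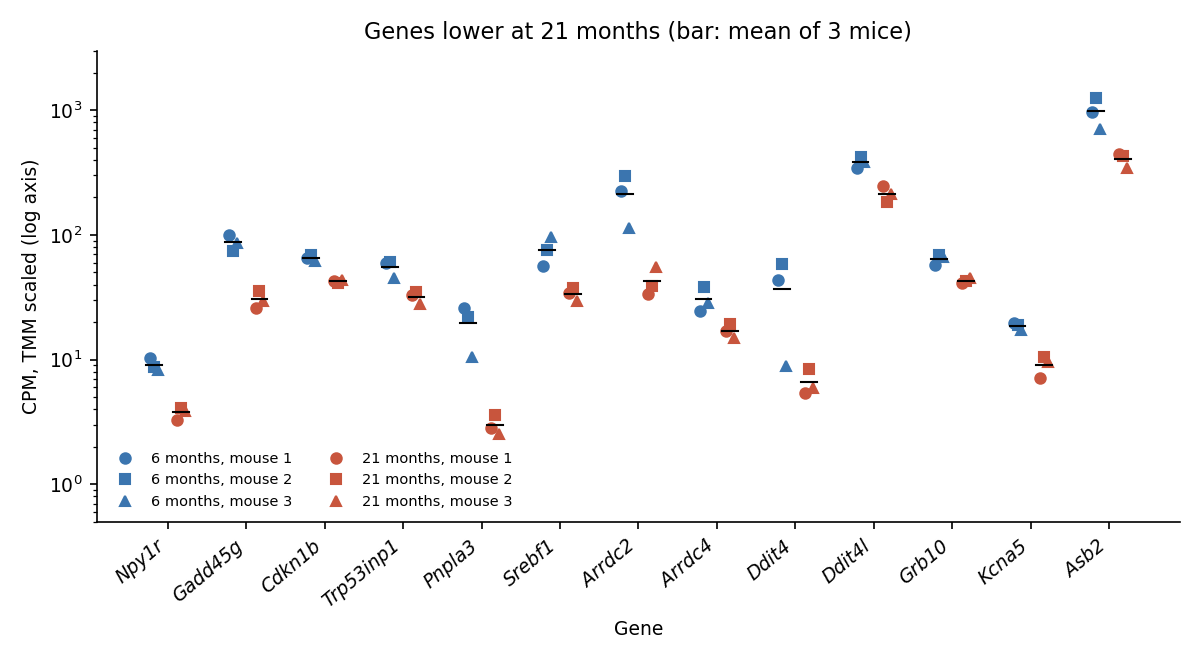
CPM of 13 genes on a log axis, 1 symbol per mouse with the mean of 3 mice as a bar, 6 months in blue and 21 months in red. In each of the 13 genes the 3 older mice lie below the 3 younger mice, by a narrow gap in Ddit4, where mouse 3 at 6 months was at 8.95 CPM and mouse 2 at 21 months at 8.47 CPM. The 13 were chosen among the genes named as lower in the text, and 8.31% of all tested genes separated in this direction.

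Insulin signalling genes and mTOR brakes together had 0 higher and 5 lower of 37 at an unadjusted p under 0.05, and 1 and 3 with the Myh7 covariate. Ddit4, an inhibitor of mTORC1, stood at 43.2, 58.4 and 8.95 CPM at 6 months and at 5.35, 8.47 and 5.87 CPM at 21 months. Its log2 fold change of -2.49 (SE 0.54) was -1.36 with the Myh7 covariate. Its muscle paralog Ddit4l stood at 342, 425 and 385 CPM against 245, 185 and 212 CPM, and its log2 fold change was -0.85, or -0.64 with the covariate. Grb10, an adaptor that inhibits the insulin receptor, stood at 56.9, 68.8 and 66.9 CPM against 41.3, 42.7 and 45.0 CPM. The ages did not overlap in these 3 genes, and mouse 3 at 6 months lay near the older mice in Ddit4. Castor1, the arginine sensor, was at -0.76. Among 13 genes of insulin-like growth factors and their binding proteins, 0 were higher and 1 lower at that unadjusted threshold, and 0 and 3 with the covariate. Igfbp3, a carrier of these factors, had a log2 fold change of -1.22 (SE 0.28), and -1.34 with the covariate.

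Clock genes had 1 higher and 5 lower of 23, and with the Myh7 covariate 1 and 1. Dropping mouse 2 at 6 months left 2 lower members, and dropping mouse 1 of that age or mouse 2 at 21 months left 3. Dropping mouse 3 at 6 months gave 5 higher and 6 lower, and the replicate block 3 and 7. Cry1, a repressor of the clock, stood at 33.7, 40.3 and 27.0 CPM against 20.6, 20.0 and 21.3 CPM and kept a log2 fold change of -0.54 with the covariate, from -0.70. Nfil3, a repressor of clock output, went from -1.15 to -0.49, and 1 of the 3 younger mice was at 28.6 CPM, within the range of the older mice.

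Asb ubiquitin ligase adaptors and laminins had more lower than higher members. Asb2, the adaptor of a ubiquitin ligase that removes filamins, stood at 974, 1259.8 and 709 CPM against 449, 426 and 345 CPM, a log2 fold change of -1.27 (SE 0.21), and -0.90 with the Myh7 covariate. Of 16 Asb adaptors 11 were lower, 4 at an unadjusted p under 0.05 (3, and 1 higher, with the covariate), and 1 without mouse 1 or mouse 2 at 21 months or without mouse 2 at 6 months. Laminins and basement membrane genes had 23 of 29 lower with a median of -0.17, 4 of them past that threshold and 7 with the covariate. Without mouse 3 at 6 months the laminin median was -0.01, with 3 members higher and 4 lower. Col4a3 and Col4a4, chains of one collagen IV network encoded side by side, were at -0.71 and -0.60, and Lamb2, a laminin of the neuromuscular junction, at -0.32. Of 25 dystrophin complex genes 18 were lower. At an unadjusted p under 0.05, 1 was higher and 3 lower, and 1 and 2 with the covariate. Among members past that threshold in the age fit, Nos1, the neuronal nitric oxide synthase, was at 0.27. The dystroglycan gene Dag1 was at -0.38 and the dystrobrevin gene Dtna at -0.31. Of 41 matrix glycoproteins 22 were lower and 19 higher, a near-even split as over all tested genes, where 6782 were lower and 6262 higher. At an unadjusted p under 0.05, 0 were higher and 4 lower, and 0 and 7 with the covariate. Once mouse 3 at 6 months was dropped, these counts were 3 and 4. The lower members were led by Ecm2, at 44.9, 48.4 and 52.1 CPM against 32.9, 37.6 and 37.9 CPM. Of 15 macrophage markers 14 were lower, 3 of them at an unadjusted p under 0.05. With the covariate 6 were lower at that threshold and the median went from -0.33 to -0.65. Without the 3 libraries that stood apart 8 were lower at it. The summed levels of the macrophage markers overlapped, with 212 to 321 CPM at 6 months and 141 to 229 CPM at 21 months. Of 11 markers of fibro-adipogenic progenitors 4 were higher and 7 lower, with 0 and 1 at that threshold. The counts were 0 and 4 with the covariate, and 0 and 2 without the libraries that stood apart. The part of either cell type in the matrix values was not tested.

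Potassium channels had 3 higher and 4 lower of 44 at an unadjusted p under 0.05, shares close to those over all genes. With the Myh7 covariate these counts were 4 and 8. Kcna5, a delayed rectifier, stood at 19.7, 19.1 and 17.2 CPM against 7.09, 10.5 and 9.63 CPM, a log2 fold change of -1.04 (SE 0.15), and -1.07 with the covariate. Kcnd3, an A-type channel, was at 0.503, 0.313 and 0.307 CPM against 1.20, 1.61 and 1.85 CPM. Pore subunits of the ATP-sensitive channel went apart. Kcnj11 of skeletal muscle stood at 132, 149 and 144 CPM against 99.6, 112 and 101 CPM, while Kcnj8, which is also a pericyte marker, stood at 23.1, 20.8 and 22.8 CPM against 28.7, 37.2 and 40.3 CPM. No pair of ages overlapped in these 4 channels.

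The genes with the smallest p-values in the higher direction included the transcription factors Runx1, Nr4a3 and Irx3. Runx1, known for its induction in denervated muscle, stood at 3.52, 2.75 and 2.88 CPM at 6 months and at 11.1, 7.64 and 6.24 CPM at 21 months, a log2 fold change of 1.44 (SE 0.22), and 1.66 with the Myh7 covariate. Nr4a3, an orphan receptor induced by exercise, stood at 3.02, 1.38 and 2.15 CPM against 12.0, 7.64 and 10.1 CPM. Of 29 Hox and Iroquois homeobox factors, 13 were higher and 16 lower. At an unadjusted p under 0.05 there was 1 in each direction, and 2 and 0 with the covariate. Irx3 was the 1 higher member at that threshold. It stood at 3.33, 3.63 and 3.99 CPM against 7.39, 8.83 and 7.53 CPM. All 3 were higher in every older mouse, which the rule for naming genes by smallest p required, and all 3 were DESeq2 calls. The calcium-dependent phospholipid binder Cpne2 was at 9.93, 9.64 and 10.9 CPM against 37.0, 26.2 and 19.3 CPM, Syt9 had a log2 fold change of 1.88 and Sybu, which ties cargo to kinesin, 1.46. Amy1 (0.81) and Plscr2 (1.11) have close paralogs, and B3gnt2 (0.87) shares 73.6% of its exon bases with the readthrough gene Gm28048, so their values are uncertain. In the lower direction the same rule added Tenm3, a teneurin (-0.90), Prdm15, a zinc finger factor (-0.67), Slc10a6, a carrier of steroid sulfates (-1.50), and Rsrp1 (-0.62).

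For some functions the age difference moved with the slow fibre genes. Cytoskeletal genes had 10 higher and 3 lower of 51, and 4 and 4 with the Myh7 covariate. Dropping mouse 2 or mouse 3 at 6 months, or mouse 1 or mouse 3 at 21 months, left 5 or 6 higher. Map7, which binds microtubules, kept 0.52 from 0.60, but Stmn2, which destabilises them, went from 0.99 to 0.52 and Xirp1 from 1.21 to 0.41. Actc1, the cardiac actin also made in young muscle, had a log2 fold change of -2.61 that was -0.89 without mouse 3 at 6 months, which was at 460 CPM. Lipid droplet genes had a median of 0.19 that was -0.06 with the covariate, and secreted muscle factors 0.15 and -0.16. At an unadjusted p under 0.05, 2 of 24 lipid droplet genes were higher and 0 lower, and 0 and 0 with the covariate. Secreted factors had 0 and 2 of 35, and 2 and 1 with the covariate. Citric acid cycle genes had 16 of 34 members with a positive slope on Myh7 within an age, and their median went from 0.04 to -0.16. At an unadjusted p under 0.05, 2 were higher and 0 lower, and 1 and 4 with the Myh7 covariate. These counts were 2 and 10 with a Tnnt1 covariate, and 3 and 7 without the 3 libraries that stood apart. Ogdhl, a brain and muscle relative of the 2-oxoglutarate dehydrogenase, kept 1.18 from 1.35. Splicing factors differed from these functions, with a median of 0.05 that was 0.03 with the covariate. Of 55, 6 had a positive and 6 a negative slope on Myh7 at an unadjusted p under 0.05. In the age fit 6 were higher and 1 lower at that threshold, and 3 and 0 with the covariate. The higher count was 16 once mouse 3 at 6 months was dropped, against 1 once mouse 1 of that age was. Hnrnpa3 stood at 250, 265 and 303 CPM against 332, 349 and 344 CPM. Clk3, the lower member, shares 23.4% of its exon bases with the opposite-strand gene Edc3, and the labels do not say whether counting was stranded.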

How the data were processed

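RNA was extracted with TRIzol and messenger RNA was enriched with oligo(dT) beads, per the labels' protocols, which favours polyadenylated RNA. The authors deposited 1 table of estimated counts for 17314 genes, with Entrez IDs and symbols, in 9 libraries, and 90.0 to 90.7% of values per library are whole within 0.005. Reads were set against mm10, per the submitters' processing notes. The sources used here do not name the aligner, the counter or its use of strand, so reads of overlapping or near-identical genes can be shared between them. Columns were matched to samples by life stage and number.

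Estimated counts were rounded, filtered with filterByExpr (minimum count 10) and scaled by TMM (factors 0.923 to 1.05). Age was the factor of a model of all 9 libraries in edgeR 4.0.16 (R 4.3.3), tested by quasi-likelihood with 6 residual and 4.24 prior degrees of freedom and adjusted by Benjamini-Hochberg over 13044 genes at 0.05. The second fit added centred log2 Myh7 CPM (prior count 2), which leaves 5 residual degrees of freedom. DESeq2 1.42.0, other scalings and filters, a Tnnt1 covariate, a replicate block and left-out libraries were alternatives. The common biological coefficient of variation was 0.164, and the depth limits genes near 1 CPM.

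Genes named are those past the threshold, the 15 higher and 15 lower genes with the smallest p among those with non-overlapping ages, a higher group at 1 CPM or more and no predicted name, up to 4 members per list with an unadjusted p under 0.05, its most abundant member, Myh7 and Tnnt1. Exceptions, chosen after their values were seen, are Sec24a, Calr, Creld2, Dnajc3, Serpinh1, Cdnf, Erp29, Ero1b, Wfs1, Cdkn1a, Xirp1 and some members given beside others of their list. An item that the naming rule selects is not reported here. The functions and their members were chosen with earlier results of these data known. Coordinates and promoters are RefSeq's (GRCm38.p6), and exon overlaps are GENCODE's for the same chromosomes.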

Additional observations from a re-analysis of the deposited data

How the results depend on the processing

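Of the values named, Xbp1 and Npy1r kept their direction under every alternative. The count of genes called, 2, was 200 with DESeq2, 30 with no filter, 1 with total count scaling, 1 with the Myh7 covariate and 5 with the replicate block, and 0 to 42 when 1 library was left out (0 without mouse 1 or 2 of either age, 42 without mouse 3 at 6 months). The count at an unadjusted p under 0.05, 1388, was 1009 to 1798 when 1 library was left out and 1122 to 1604 otherwise. Xbp1 had an edgeR adjusted p of 0.0521 with only the 6- and 21-month libraries, and Npy1r one of 0.0689 with total count scaling and 0.0583 with those libraries. Myh7 turned to -0.11 on the log2 scale under the Tnnt1 covariate and Tnnt1 to -0.024 under the Myh7 covariate, where each fit holds the other slow fibre gene constant. Lower members numbered 3 to 7 for laminins, 3 to 6 for matrix glycoproteins, 3 to 6 for potassium channels, 4 to 7 for insulin signalling and mTOR brakes, and 3 to 5 each for lipid synthesis and for growth arrest when 1 library was left out. Named genes with log2 fold changes near 0 changed sign. Cdnf was at 0.054 and Erp29 at 0.064 with total count scaling, Erp29 at 0.013 and Serpinh1 at -0.17 without the 3 libraries that stood apart, Ero1b at -0.00017 with no filter and -0.00028 with the replicate block, and Serpinh1 at -0.21 with the Myh7 and -0.15 with the Tnnt1 covariate. When 1 library was left out, Cdnf lay between -0.072 and 0.025, Ero1b between -0.11 and 0.061, Erp29 between -0.10 and 0.034 and Serpinh1 between -0.13 and 0.32. Adipoq, at -1.63, was at 0.50 without the 3 libraries and between -2.11 and 0.28 with 1 left out. Total count scaling shifted the median of all genes to 0.07, and higher members then numbered 19 for vesicle genes, 17 for ER entry, 6 for ER-associated degradation and 13 for splicing. Mouse numbers did not pair the ages: deviations of same-numbered mice correlated at -0.17, 0.19 and 0.02, and with the replicate block Npy1r had an edgeR adjusted p of 0.0865 and Xbp1 one of 0.0185. With 3 mice a side and at most 17317856 counts per library, differences in genes near 1 CPM are poorly resolved.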
